A study of Mus musculus with 10 samples.

Results

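The sodium-coupled sugar and monocarboxylate transporters Slc5a1, Slc5a2, Slc5a8, Slc5a10 and Slc5a12, with the facilitative glucose transporter Slc2a2, were followed through acute injury of the mouse kidney. These 6 genes were taken by name from the 28808 gene symbols of the tables and were read in proximal tubule barcodes. A barcode stands for a captured cell, and it was called proximal from unique molecular identifiers (UMIs, which count captured RNA molecules) of 18 other genes, so no member chose the cells. The gate held 25327 of the 50378 barcodes used. The kidney cortex of mice aged 4 weeks was dissociated and sequenced by Drop-seq, which captures the RNA of single cells on barcoded beads and reads its 3′ end. There were 10 libraries: 1 of normal kidney (the control), 1 each of days 1, 2 and 4 after injury, and 2 each of days 7, 11 and 14. The labels give no kind of injury, strain, sex, animal or batch, and do not say whether the 2 libraries of a day came from separate animals, so p-values measure the spread between libraries, which may be technical.

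The proximal tubule takes filtered glucose back from the urine with apical sodium-driven carriers and releases it into blood through basolateral facilitative carriers. SGLT2 (Slc5a2) is the high-capacity glucose carrier of the convoluted part, SGLT1 (Slc5a1) is the high-affinity carrier further down, in the straight part, and GLUT2 (Slc2a2) is the basolateral exit. SGLT5 (Slc5a10) carries mannose and fructose, and the carriers SMCT1 (Slc5a8) and SMCT2 (Slc5a12), of high and low affinity, take up lactate and other monocarboxylates.

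The GENCODE annotation of GRCm38, the assembly that the build name mm10 in the submitters' processing notes denotes, places Slc5a1 at chr5:33104219-33162870, Slc5a2 at chr7:128265657-128272430, Slc5a8 at chr10:88885992-88929515, Slc5a12 at chr2:110597298-110647779 and Slc2a2 at chr3:28697903-28731359, all on the plus strand. Slc5a10 lies at chr11:61672781-61720826 on the minus strand. Slc5a8 and Slc5a12 overlap no other annotated gene, while Slc5a2 overlaps BC017158, Slc5a10 overlaps Grap and Fam83g, and Slc2a2 overlaps 1700112D23Rik, all on the opposite strand. Slc5a1 overlaps Gm15936 on its own strand and 5033423K11Rik on the other. The strand used in counting is not given in the sources used here, so reads of these overlapping genes cannot be told apart from those of the members.

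RefSeq promoter entries (GRCm38.p6) were matched for 4 of the 6 members. They are printed here because 3 of those members stood below the control together on days 1 and 2 after injury and Slc2a2 stood above it. Each run is the sequence before the gene's start, 5′ to 3′ on the gene's strand. Slc5a10 has 2 entries, and the one further upstream is printed, ended at 223 of 250 bases where the annotated gene begins. The other (chr11:61719986-61720235) is not printed and held no match either. Capitals would mark a match to TGNACTTTG, the core of an HNF4A site (N any base), or to its reverse complement CAAAGTNCA.
Slc5a8, chr10:88885742-88885991, plus strand: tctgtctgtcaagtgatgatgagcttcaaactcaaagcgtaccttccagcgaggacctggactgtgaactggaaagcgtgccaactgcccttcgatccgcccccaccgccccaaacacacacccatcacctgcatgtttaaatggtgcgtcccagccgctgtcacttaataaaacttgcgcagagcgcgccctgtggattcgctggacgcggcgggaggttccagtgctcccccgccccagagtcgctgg
Slc5a10, chr11:61720827-61721049, minus strand: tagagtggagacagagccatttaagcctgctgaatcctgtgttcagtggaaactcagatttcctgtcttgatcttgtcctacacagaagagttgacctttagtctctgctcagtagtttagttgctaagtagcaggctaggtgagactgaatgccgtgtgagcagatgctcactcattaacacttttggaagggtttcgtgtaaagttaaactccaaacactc
Slc5a1, chr5:33103969-33104218, plus strand: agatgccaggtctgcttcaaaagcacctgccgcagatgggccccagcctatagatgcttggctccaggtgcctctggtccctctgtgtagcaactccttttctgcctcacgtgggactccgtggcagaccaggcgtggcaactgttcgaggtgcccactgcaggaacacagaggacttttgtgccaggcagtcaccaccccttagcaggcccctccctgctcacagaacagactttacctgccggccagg
Slc2a2, chr3:28697653-28697902, plus strand: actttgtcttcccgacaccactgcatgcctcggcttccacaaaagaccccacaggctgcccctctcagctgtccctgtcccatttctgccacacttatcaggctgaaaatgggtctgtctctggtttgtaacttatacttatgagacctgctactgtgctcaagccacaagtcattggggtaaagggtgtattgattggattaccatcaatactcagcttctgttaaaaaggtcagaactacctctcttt
These letters were in none of the 4 runs, so all are in lower case. Among all 32851 promoter entries, 1.19% hold them on either strand within 250 bases before the start. The absence of a match says only that these letters are not in this window.

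The deposited libraries held 7091848 to 31632205 UMIs, and the barcodes used had a median of 1252.5 to 2662 UMIs. Proximal barcodes made up 61.2% of the control (3576 of 5843). Their share was 22.5%, 45.0% and 38.6% at days 1, 2 and 4, 6.02% and 7.73% at day 7 (208 and 379 barcodes), and 64.2% to 74.3% in the 4 libraries of days 11 and 14. The proximal barcodes of the injured days also carried other RNA: the 7 macrophage markers summed to 13.8 CPM in the control (the field's usual depth-scaled count, a gene's UMIs relative to all UMIs of the barcodes summed) and to 1138 and 749 CPM on day 7, with none of the 7 at 0 in either day 7 library. The 7 injured tubule markers, Havcr1 among them, summed to 63.1 CPM in the control and to between 854 and 3910 CPM on days 1 to 7. The 4 erythroid markers summed to 2546 and 1316 CPM on day 11, against 16.5 CPM in the control and 18.9 to 870 CPM elsewhere. Proximal barcodes of day 11 also had the lowest median depth, 1423 and 1361 UMIs, against 1768.5 to 2600.5 in the other libraries. The part of these markers, of depth and of the control's median mitochondrial share of 22.9% in proximal barcodes (4.87% to 17.6% in the other libraries) in the results was not tested.

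Whether the members mark different stretches of the proximal tubule was examined first. Convoluted-leaning barcodes had at least 2 UMIs of 6 convoluted tubule genes and over 2 times those of 7 straight tubule genes, and straight-leaning barcodes the reverse. The rule left 8047 and 6989 barcodes, and no member was in either list. Slc5a2, Slc5a12 and Slc2a2 were higher in convoluted-leaning barcodes, and Slc5a8, Slc5a10 and Slc5a1 in straight-leaning ones.

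Slc5a12 had the widest gap. In the control it stood at 377 CPM in convoluted-leaning and 5.95 CPM in straight-leaning barcodes, and in the other 7 libraries with at least 20 barcodes of both classes at 252 to 624 and 8.38 to 19.8 CPM. The straight-leaning level was lower by 4.94 on the log2 scale (SE 0.14), 30.7-fold, in 8 of 8 libraries (adjusted p = 7.11e-15, edgeR's quasi-likelihood test with library as a block and Benjamini-Hochberg adjustment over 9620 genes). The ranges of the classes did not overlap. The straight-leaning control level rests on 41 UMIs among 6890136. Control barcodes picked by thick ascending limb genes, which should lack Slc5a12, held 34 among 5868904, a similar level. The part of free RNA, captured from outside the cell, in the size of this gap was not tested.

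Slc5a2 stood at 454 and 19.2 CPM in the control, at 433 to 773 CPM in the other convoluted-leaning sums and at 36.7 to 132 CPM in the other straight-leaning sums. It was lower in straight-leaning barcodes by 3.53 (SE 0.18), 11.6-fold, in 8 of 8 libraries (edgeR adjusted p = 1.55e-11). Slc2a2 differed least of the convoluted-leaning members, by 1.61 (SE 0.17), 3.05-fold, in 8 of 8 libraries (edgeR adjusted p = 2.63e-07), from 54.6 against 10.2 CPM in the control.

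The lactate carrier Slc5a8 was the straight-leaning member with the largest gap. It stood at 55.1 CPM in convoluted-leaning and 323 CPM in straight-leaning barcodes of the control, and it was higher in the straight-leaning ones by 2.89 (SE 0.15), 7.40-fold, in 8 of 8 libraries (edgeR adjusted p = 2.26e-11). Slc5a1 was higher there by 2.39 (SE 0.23), 5.23-fold, in 8 of 8 libraries (edgeR adjusted p = 9.83e-08), at 5.91 and 30.6 CPM in the control.

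Slc5a10 was higher in straight-leaning barcodes by 2.06 (SE 0.17), 4.16-fold, in 7 of 8 libraries (edgeR adjusted p = 9.11e-09). The eighth is day 1, whose 21 straight-leaning barcodes held no UMI of it. So 6 of 6 members differed between the classes, beside 43.3% of all genes tested. Every call was kept with each of the 8 libraries left out, in DESeq2 and in the other gates tried.

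**Figure D1:**
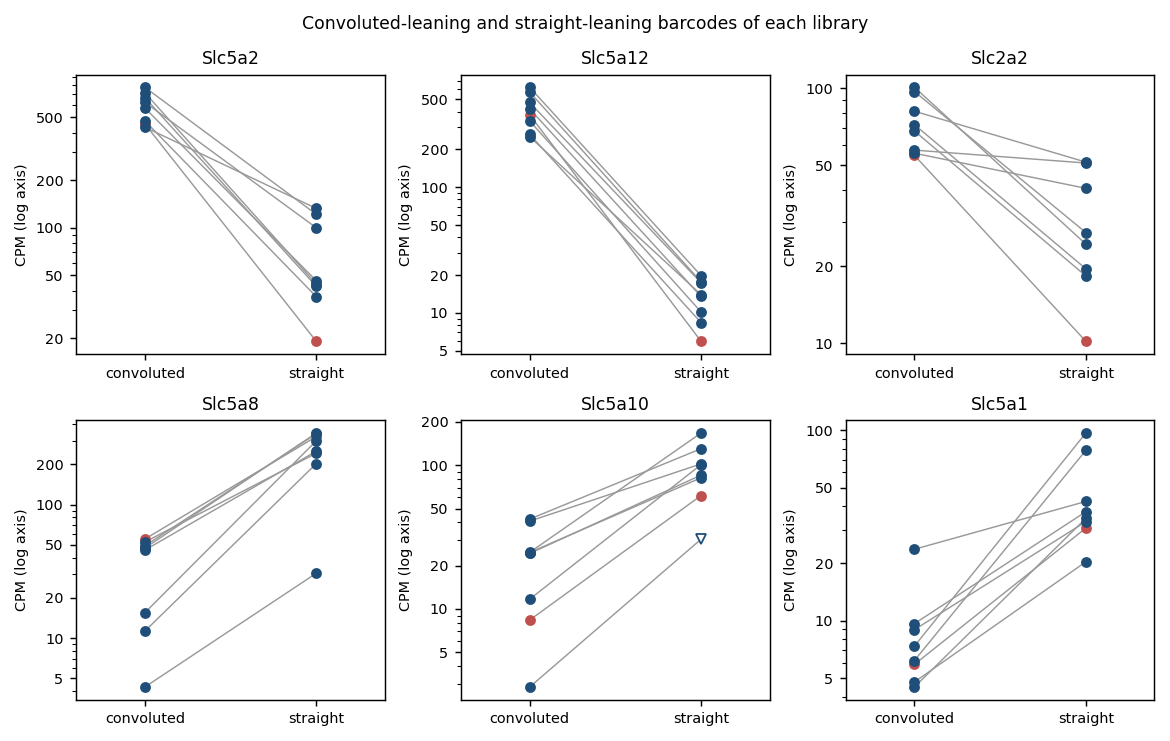
Level of each member in convoluted-leaning and straight-leaning proximal barcodes, in CPM on log axes that differ between panels. Each line joins the 2 classes of 1 library (8 libraries, the control in red), and an open triangle marks a library without UMIs, drawn at the level of 3 counts. Lines fall for Slc5a2, Slc5a12 and Slc2a2 and rise for Slc5a8, Slc5a10 and Slc5a1, save that the day 1 line of Slc5a10 ends at that floor and not at a measured level.

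Single barcodes were compared by the share with a captured UMI. In the control, 59.0% of the 685 barcodes with Slc5a12 also had Slc5a2, against 20.7% of those without Slc5a12. Of the 274 control barcodes with Slc5a1, 77.4% had Slc5a8, against 36.7% of those without Slc5a1, and 15.7% had Slc5a2, against 29.0%. On day 14, 63.0% and 70.9% of barcodes with Slc5a12 had Slc5a2, against 24.8% and 34.6% of the rest. In thick limb-like control barcodes, which should lack both, 3.82% had Slc5a2 and 1.70% had Slc5a8, at a median of 4039 UMIs against 2600.5 in proximal ones. These shares move with depth and are given without a test.

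The classes themselves shifted after injury. Straight-leaning barcodes were 31.6% of proximal ones in the control (95% exact interval 30.0 to 33.1), 2.74% on day 1 (21 barcodes), 0.743% on day 2 (13 barcodes) and 22.5% on day 4. On day 7 they were 6.25% and 21.6%, on day 11 36.8% and 44.8%, and on day 14 30.4% and 19.2%. Fewer straight tubule cells and less RNA of the straight list per cell cannot be told apart here, and the same holds for any sum over proximal barcodes. The 2 day 7 libraries differ in this makeup, the first lying closer to days 1 and 2.

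In all proximal barcodes together, the straight-leaning members were lowest on days 1 and 2 and in the first library of day 7. The convoluted-leaning members Slc5a2 and Slc5a12 were highest on day 2, and Slc2a2 was about as high on day 2 as in the second day 14 library. Levels over all proximal barcodes are given as CPM scaled by edgeR's TMM factors, which allow for differences in RNA composition. Values of single libraries carry exact Poisson 95% intervals, which cover counting error only. Days 1, 2 and 4 had 1 library each and entered no test. The lone control was assumed to vary like the replicated days, which set the spread.

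The lactate carrier Slc5a8 stood at 333 CPM in the control (323 to 344), at 6.14 CPM (3.80 to 9.39) on day 1 and at 9.49 CPM (7.58 to 11.7) on day 2, 54.2-fold and 35.1-fold lower. It was at 86.3 CPM on day 4, 14.2 and 126 CPM on day 7, 213 and 222 CPM on day 11, and 262 and 219 CPM on day 14. Every injured library lay below the control, and days 11 and 14 overlapped. Day 7 was lower than the control by 2.10 on the log2 scale (SE 0.56), in 2 of 2 libraries (edgeR adjusted p = 0.0177). The 2 day 7 libraries set its size: it was -1.40 without the first and -4.55 without the second, both called. Day 11 was higher than day 7 by 1.49 (SE 0.49, edgeR adjusted p = 0.0461), and by 0.79 or 3.93 without the first or second day 7 library. This call was lost without either day 11 library (edgeR adjusted p = 0.108 and 0.146). With library totals in place of TMM scaling, which moved the median of all genes on day 7 against the control to 0.79, these 2 differences were -1.33 and 0.86 and not called (edgeR adjusted p = 0.0729 and 0.174). In DESeq2 these 2 adjusted p were 0.221 and 0.268. The differences of days 11 and 14 from the control, -0.62 and -0.47, were within the spread (edgeR adjusted p = 0.448 and 0.626).

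Slc5a10, the mannose and fructose carrier, was at 59.3 CPM in the control (55.0 to 63.9), at 4.68 CPM (2.68 to 7.60) on day 1, 12.7-fold lower, and at 5.92 CPM (4.43 to 7.74) on day 2. It was at 48.2 CPM on day 4, 9.96 and 78.3 CPM on day 7, 75.1 and 92.5 CPM on day 11, and 86.1 and 114 CPM on day 14. All 4 libraries of days 11 and 14 lay above the control, but neither difference passed the test: 0.50 (SE 0.50) on day 11 and 0.75 (SE 0.50) on day 14, edgeR adjusted p = 0.507 and 0.365.

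Slc5a1 went from 30.4 CPM in the control (27.3 to 33.7) to 5.56 CPM (3.35 to 8.68) on day 1 and 4.47 CPM (3.19 to 6.08) on day 2. It was at 41.9 CPM on day 4, 4.27 CPM (3 UMIs) and 35.5 CPM on day 7, 31.0 and 47.5 CPM on day 11, and 30.7 and 33.6 CPM on day 14. The low libraries are the same as for Slc5a8 and Slc5a10, and from day 11 its libraries were at or above the control. None of its 5 tested comparisons between days was called (edgeR adjusted p from 0.278 to 0.925).

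The glucose carrier Slc5a2 was lowest in the control, at 153 CPM (146 to 160), and highest on day 2, at 731 CPM (713 to 749), 4.77-fold higher. It stood at 327 CPM on day 1, 274 CPM on day 4, 370 and 262 CPM on day 7, 212 and 221 CPM on day 11, and 264 and 383 CPM on day 14. All 9 injured libraries were above the control. Day 7 was higher by 1.03 (SE 0.30), in 2 of 2 libraries (edgeR adjusted p = 0.0271), and day 14 by 1.08 (SE 0.30), in 2 of 2 libraries (edgeR adjusted p = 0.0427). The day 14 call was lost without the second day 14 library (0.79, edgeR adjusted p = 0.282) and without either day 11 library (edgeR adjusted p = 0.0710 and 0.0726). Day 11, higher by 0.50 (SE 0.29), was not called (edgeR adjusted p = 0.245).

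Slc5a12, the lactate carrier of low affinity, followed a like course at its own levels. It stood at 102 CPM in the control (96.3 to 108), 231 CPM on day 1, 709 CPM (692 to 727) on day 2 and 170 CPM on day 4. It was at 322 and 127 CPM on day 7, 99.0 and 79.1 CPM on day 11, and 192 and 211 CPM on day 14. The libraries of day 11 lay below those of day 7 and day 14 without overlap: by 1.30 against day 7 (SE 0.34, log2 change -1.30, edgeR adjusted p = 0.0147), and day 14 was higher than day 11 by 1.18 (SE 0.32, edgeR adjusted p = 0.0365). Without the first day 7 library the former was -0.51 (edgeR adjusted p = 0.107), and it was not called without the second day 11 library either (-1.15, edgeR adjusted p = 0.116). Within convoluted-leaning barcodes alone it was -0.42 and not called (edgeR adjusted p = 0.168). Within straight-leaning ones, where day 7 had 1 library with 5 UMIs of Slc5a12, it was 0.35, given without a p. Its excess over the control on day 7, 1.10 (SE 0.42), was not called (edgeR adjusted p = 0.0751).

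The exit carrier Slc2a2 was lowest in the control, at 29.4 CPM (26.4 to 32.7). It was at 46.8 CPM on day 1, 77.3 CPM (71.6 to 83.2) on day 2, 51.7 CPM on day 4, 44.1 and 54.2 CPM on day 7, 47.2 and 42.2 CPM on day 11, and 62.8 and 76.5 CPM on day 14. Days 4, 7 and 11 overlapped, and day 14 lay above them. It was higher than the control on day 14 by 1.24 (SE 0.24), 2.37-fold, in 2 of 2 libraries (edgeR adjusted p = 0.00988), and on day 7 by 0.77 (SE 0.26, edgeR adjusted p = 0.0496). The former was not called without the second day 14 library (1.09, edgeR adjusted p = 0.0751). The latter was kept in 7 of 19 alternatives and lost without the second day 7 library (0.59, edgeR adjusted p = 0.214). Day 14 was above day 11 by 0.64 (SE 0.19, edgeR adjusted p = 0.0499).

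Against the control, 3 of 6 members were called on day 7, none on day 11 and 2 on day 14, beside 23.4%, 21.7% and 9.42% of the 14804 genes tested. At an unadjusted p below 0.05, day 11 against the control had 1 member (Slc2a2), beside 5280 of the 14804 genes in edgeR. DESeq2 called no member there. Between days, 2 members were called in day 11 against day 7, beside 24.2% of genes, and 2 in day 14 against day 11, beside 10.4%. Of these 9 calls, only that of Slc5a8 on day 7 was kept with each library of days 7, 11 and 14 left out in turn. The other 8 were lost without at least 1 of them, and the 2 calls of day 14 against day 11 without any 1 of the 4 libraries of those days. In convoluted-leaning barcodes alone, the day 7 excess of Slc5a2, Slc5a12 and Slc2a2 turned to -0.15, -0.20 and -0.53, none called. The day 7 call of Slc5a2 was also lost without the first day 7 library (0.78, edgeR adjusted p = 0.0670).

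**Figure D2:**
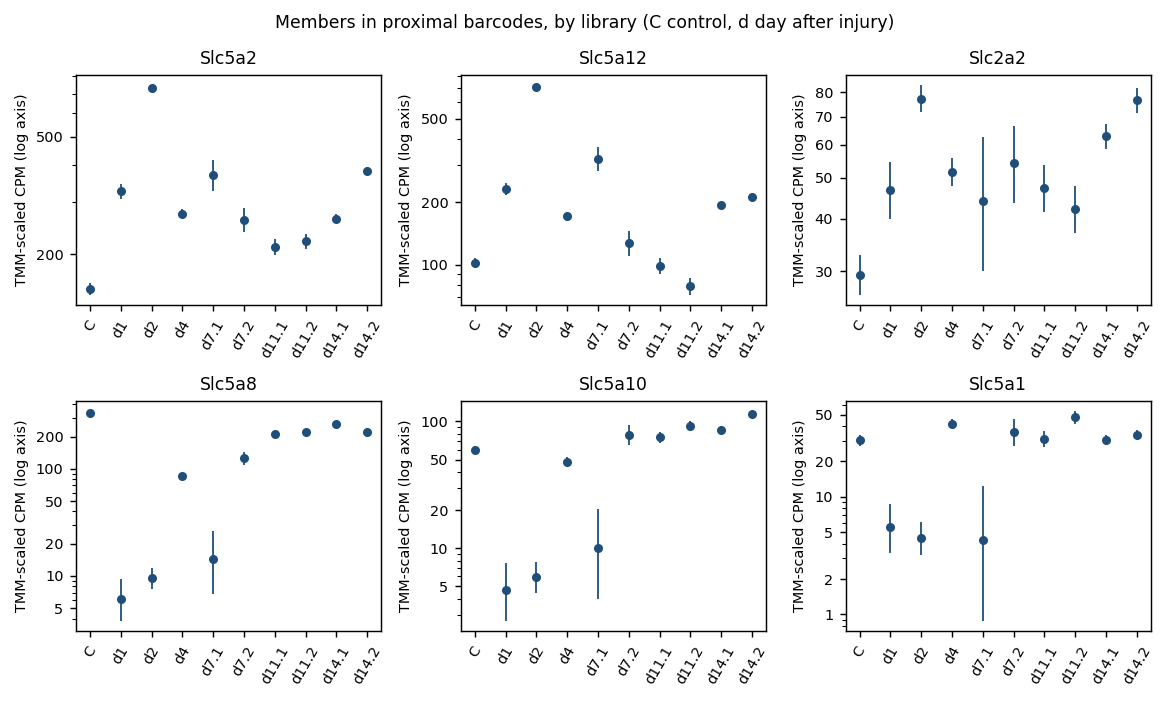
TMM-scaled CPM of each member in the proximal barcodes of each library, on log axes that differ between panels (C, control; d, day after injury; a number after the point names the library of a day). Bars are exact Poisson 95% intervals. Slc5a2 and Slc5a12 are highest on day 2, and Slc2a2 is about as high on day 2 as in the second day 14 library (77.3 and 76.5 CPM). Slc5a8, Slc5a10 and Slc5a1 are lowest on days 1 and 2 and in the first day 7 library.

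Because the makeup of proximal barcodes shifted, the members were compared within each class. Levels here are CPM scaled by the TMM factors of each class's own fit, so they differ from the unscaled class CPM given earlier. Sums over marker lists and values given as CPM of all UMIs are not scaled. In convoluted-leaning barcodes, Slc5a8 was also lower after injury. It stood at 67.7 CPM in the control (55.7 to 81.5), 3.80 CPM (1.74 to 7.22) on day 1, 5.75 CPM (4.16 to 7.75) on day 2 and 9.77 CPM (6.38 to 14.3) on day 4. It was at 5.17 and 13.0 CPM on day 7 (2 and 5 UMIs), 63.1 and 51.4 CPM on day 11, and 52.5 and 56.2 CPM on day 14. The 5 libraries of days 1 to 7 were all below the control, and the 4 of days 11 and 14 were near it.

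In these convoluted-leaning barcodes the day 7 level of Slc5a8 was below the control by 2.89 (log2 change -2.89, SE 0.47), 7.43-fold, in 2 of 2 libraries (edgeR adjusted p = 0.000190). It was higher on day 11 than on day 7 by 2.66 (SE 0.45), 6.31-fold, again without overlap (edgeR adjusted p = 0.000226). These rest on 2 and 5 UMIs on day 7: with single libraries left out the first ran from -3.69 to -2.38 and the second from 2.13 to 3.46. Of 12 alternatives, 11 kept the first call and 12 the second. In the same barcodes the 7 straight list genes summed to 491 CPM in the control, 194 CPM on day 1, 235 CPM on day 2, 397 CPM on day 4, and 382 and 371 CPM on day 7. They summed to 387 and 524 CPM on day 11, and to 625 and 605 CPM on day 14. These sums are unscaled, and with the TMM factors used for Slc5a8 their fall from the control to day 7 is larger. Its part in the fall of Slc5a8 was not tested.

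With convoluted-leaning barcodes restricted to those without any straight list UMI, Slc5a8 had 14 UMIs in the control, or 19.2 CPM of all UMIs. It had 1 UMI on day 1 (1.07 CPM) and 2 UMIs on day 2 (0.850 CPM). Day 7 had none in either library, and at the depth of each library alone 3 counts would be 27.3 and 26.1 CPM, above the control's level. The day 7 difference was not called there (adjusted p = 0.0688 in edgeR), and with so few UMIs the test decides little. In thick limb-like barcodes, where Slc5a8 would be free RNA, the control had 2.04 CPM of all UMIs and the 9 other libraries 0.723 to 7.33 CPM. The first day 7 library had 6.73 CPM there (4 UMIs, 1.83 to 17.2), against 6.59 CPM (2 UMIs, 0.798 to 23.8) of all UMIs in its convoluted-leaning barcodes, so its level in the latter cannot be told from that background. In the second day 7 library the values were 1.21 CPM (2 UMIs, 0.147 to 4.38) and 15.5 CPM (5 UMIs, 5.02 to 36.1).

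Slc5a10 behaved otherwise in convoluted-leaning barcodes. It was at 10.3 CPM (5.99 to 16.5) in the control, 2.53 and 3.88 CPM on days 1 and 2, and 10.3 and 20.7 CPM on day 7. It was at 29.7 and 46.1 CPM on day 11 and at 27.1 and 48.4 CPM on day 14, all 4 above the control. Day 11 was higher than the control by 1.86 (SE 0.48), 3.63-fold (edgeR adjusted p = 0.0126), and day 14 by 1.89 (SE 0.45), 3.72-fold (edgeR adjusted p = 0.0170), each in 2 of 2 libraries. The control value rests on 17 UMIs, and leaving out single libraries raised the edgeR adjusted p to at most 0.198 on day 11 and 0.298 on day 14. The day 11 call was kept in 9 of 12 alternatives and the day 14 call in 6 of 11. The straight list sums of these barcodes are given above, and their part in these differences was not tested.

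Slc5a2 in its own class ranged from 383 CPM on day 1 to 820 CPM on day 2, with 557 CPM in the control and 486 and 521 CPM on day 7. Slc5a12 ranged from 285 CPM on day 11 to 801 CPM on day 2 with 464 CPM in the control, and rose from day 11 to day 14 by 0.97 (SE 0.19, edgeR adjusted p = 0.00265), a call that was lost without any 1 of the 4 libraries of those days (edgeR adjusted p from 0.0697 to 0.166). Slc2a2 ranged from 46.5 CPM on day 7 to 116 CPM on day 14, with 67.1 CPM in the control. None of the 3 was called against the control on day 7, 11 or 14. Over the 6 members, 1 was called on day 7, 1 on day 11 and 1 on day 14, beside 13.4%, 14.5% and 6.25% of the 12012 genes tested. In day 11 against day 7 the 1 call was Slc5a8, and in day 14 against day 11 it was Slc5a12, beside 17% and 6.72% of genes.

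Straight-leaning barcodes numbered at least 20 in 8 libraries, without day 2 and the first day 7 library. Day 7 and the control thus have 1 library each here, so their difference has no replicate check: its SE borrows the spread of days 11 and 14, and it is given without a p. There Slc5a8 stood at 420 CPM in the control, 19.9 CPM (3 UMIs) on day 1, 175 CPM on day 4, 233 CPM in the remaining day 7 library, 287 and 294 CPM on day 11, and 393 and 382 CPM on day 14. Its log2 difference from the control was -0.85 (SE 0.21) in the 1 day 7 library. On day 11 it was lower by 0.53 (SE 0.16, log2 change -0.53), in 2 of 2 libraries (edgeR adjusted p = 0.0228). Slc5a10 was at 80.2 CPM in the control and at 87.3 to 147 CPM from day 4 to day 14, with no call. On day 1 it had no UMI, and 3 counts there would be 19.9 CPM.

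Slc5a1 in straight-leaning barcodes was at 39.9 CPM in the control, 13.3 CPM (2 UMIs) on day 1, 83.5 CPM (74.5 to 93.3) on day 4, 60.8 CPM (40.7 to 87.3) on day 7, and 39.2 to 49.6 CPM on days 11 and 14, with no call. Slc5a2 was at 24.96 CPM in the control and between 43.5 and 105 CPM in all 7 others. It was higher by 0.98 (SE 0.22) on day 11 and 0.98 (SE 0.21) on day 14 (edgeR adjusted p = 0.00403 and 0.00589), and its log2 difference in the single day 7 library was 1.63 (SE 0.31). Without any barcode holding a convoluted list UMI, the values on days 11 and 14 were 0.082 and 0.22 and were not called (edgeR adjusted p = 0.929 and 0.853), and DESeq2 called neither (adjusted p = 0.195 and 0.288). DESeq2 did not call the day 11 difference of Slc5a8 in this class either (adjusted p = 0.261). The part of free RNA in the Slc5a2 differences was not tested.

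In these barcodes Slc2a2 was higher by 0.76 (SE 0.26) on day 11 and 1.16 (SE 0.24) on day 14, and Slc5a12 by 1.36 (SE 0.34) on day 14 (edgeR adjusted p = 0.0362, 0.00454 and 0.0134), each in 2 of 2 libraries. Without barcodes holding a convoluted list UMI these 3 were 1.53, 1.25 and 1.03 and were not called (edgeR adjusted p = 0.364, 0.568 and 0.632). The part of free RNA in these 3 differences was not tested. Against the control, 3 members were called on day 11 and 3 on day 14, beside 30.5% and 17.9% of 12126 genes, in a fit with 2 residual degrees of freedom. On day 7, where the fit passed 17% of genes, nothing is read from it. Day 11 against day 7 rests on the same single day 7 library, and no call is counted there either. In day 14 against day 11 no member was called, beside 15.9% of genes. The change against the control differed between the classes, by an interaction test in edgeR, for 3 of 6 members on day 11 (Slc5a2, Slc5a10 and Slc5a12) and 2 on day 14 (Slc5a10 and Slc5a12), beside 2.48% and 1.82% of 12741 genes. No call is counted for day 7, where 1 straight-leaning library stands against 1 of the control and the fit passed 1.88% of genes.

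**Figure D3:**
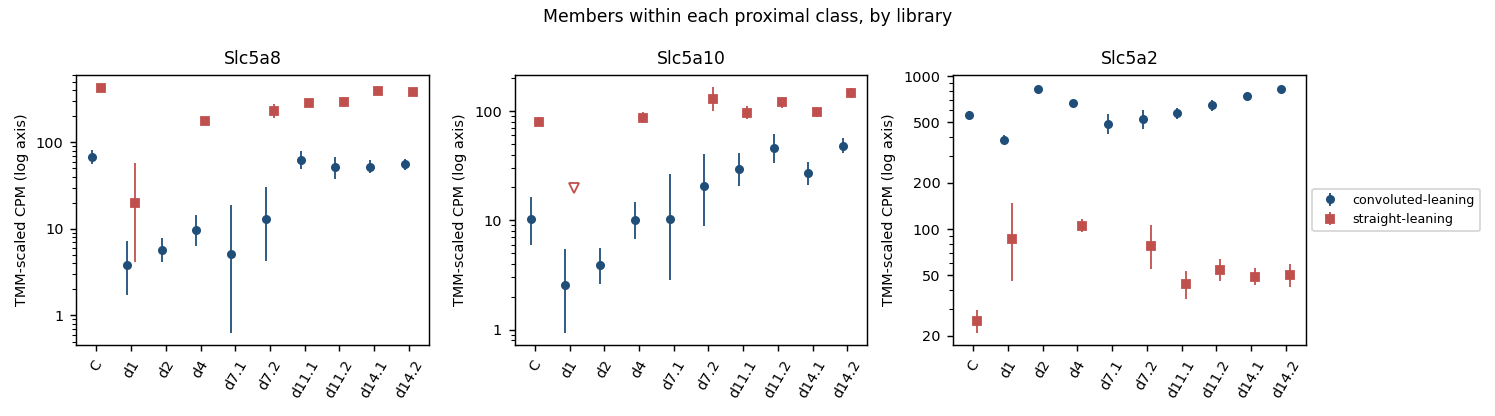
TMM-scaled CPM of Slc5a8, Slc5a10 and Slc5a2 in convoluted-leaning (blue circles) and straight-leaning (red squares) barcodes of each library, log axes, with exact Poisson 95% intervals. The open triangle is the 3-count level of day 1, which had no Slc5a10 UMI. The blue Slc5a8 points of days 1 to 7 lie at 3.80 to 13.0 CPM, against 67.7 CPM in the control.

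Havcr1 encodes KIM-1, a surface protein of injured proximal cells. It was found in 0.951% of control proximal barcodes, 70.8% on day 1, 10.9% on day 2, 50.1% on day 4, 58.7% and 38.5% on day 7, and 0.710% to 1.14% on days 11 and 14. Within each of the 9 injured libraries, proximal barcodes with a Havcr1 UMI were compared with those without. Havcr1-bearing barcodes outside the proximal gate did not enter, so the comparison covers only barcodes that passed it. With at least 2 Havcr1 UMIs, day 7 had 382 and 376 barcodes outside the gate and 87 and 104 inside. Day 4 had 755 outside and 737 inside, day 1 had 259 and 435, and day 2 had 24 and 90.

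Slc5a12 was lower in Havcr1-bearing barcodes in 9 of 9 libraries. The values were 235 against 493 CPM on day 1, 540 against 851 CPM on day 2, 98.2 against 397 CPM on day 4, and 323 against 732 and 65.0 against 264 CPM on day 7. The difference was -1.38 (SE 0.14), 2.61-fold lower (edgeR adjusted p = 3.29e-08). Slc5a2 was lower by 1.01 (SE 0.11), 2.02-fold, in 9 of 9 libraries (log2 change -1.01, edgeR adjusted p = 1.02e-07), for example 212 against 540 CPM on day 4 and 559 against 876 CPM on day 2.

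The other 4 members were not called: Slc2a2 differed by -0.28 (SE 0.13), Slc5a8 by -0.22 (SE 0.18), Slc5a10 by 0.075 (SE 0.16) and Slc5a1 by 0.24 (SE 0.21). So 2 of 6 differed, beside 18% of the 8910 genes tested. Within convoluted-leaning barcodes of the 5 libraries of days 1 to 7, Slc5a2 was lower by 0.74 (SE 0.096) and Slc5a12 by 0.90 (SE 0.099) in 5 of 5 libraries (log2 changes -0.74 and -0.90, edgeR adjusted p = 9.17e-07 and 4.88e-08), beside 18.5% of genes. Slc2a2 differed by -0.059 (SE 0.15, adjusted p = 0.827). With at least 2 Havcr1 UMIs, in 5 libraries, Slc5a8 was also called, at -0.74 (SE 0.25, edgeR adjusted p = 0.0320, lower in 3 of 5), beside 31.4% of genes. A Havcr1 UMI is found more often in deeper barcodes, and the part of depth was not tested.

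**Figure D4:**
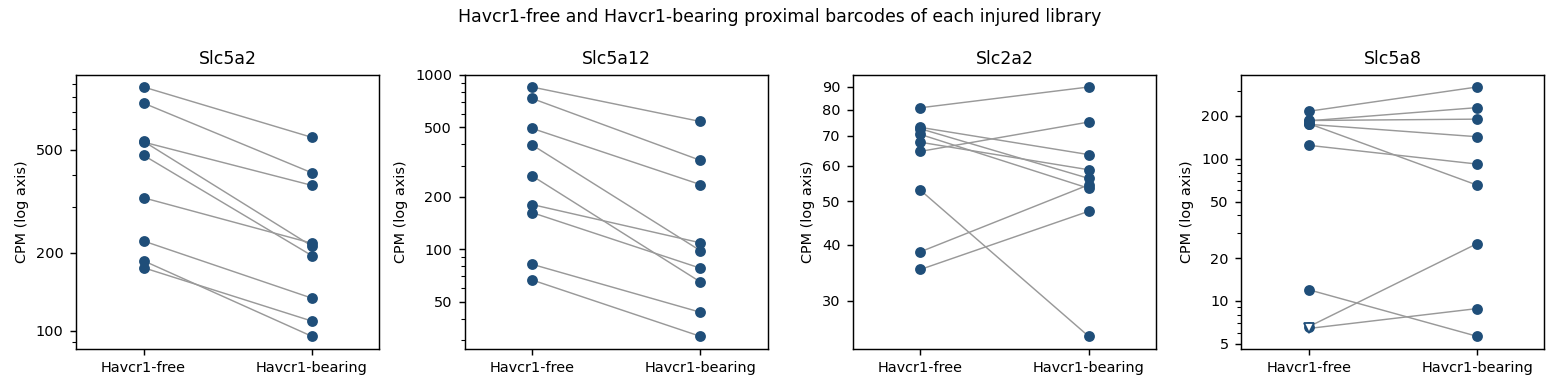
CPM of 4 members in Havcr1-free and Havcr1-bearing proximal barcodes, log axes that differ between panels, each line being 1 of 9 injured libraries. All 9 lines fall for Slc5a2 and Slc5a12, and lines go both ways for Slc2a2 and Slc5a8. The open triangle marks day 1, where Havcr1-free barcodes held no Slc5a8 UMI, at the level of 3 counts.

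Most Slc5a1 UMIs were outside the proximal gate. Thick limb-like barcodes, picked by Umod, Slc12a1, Cldn16 and Cldn10 from the thick ascending limb, held 75.5% of them in the control and 39.0% to 85.1% elsewhere, and proximal barcodes 23.4% in the control and 1.46% to 49.5% elsewhere. Its level there was 194 CPM of all UMIs in the control and 146 to 309 CPM in the 9 others, against 4.82 to 50.2 CPM in proximal barcodes over all 10 libraries. The ranges did not overlap. On day 7 the proximal gate also left out much of the RNA of other members. In the first and second library it held 47.4% and 51.2% of Slc5a2 UMIs, and 59.0% and 70.6% of Slc5a12 UMIs. It held 24.4% and 69.0% for Slc5a8, 22.6% and 44.5% for Slc5a10, and 38.3% and 40.0% for Slc2a2. Without the limit on UMIs of other classes, the gate would hold 552 and 828 barcodes on day 7 in place of 208 and 379.

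Thick limb-like barcodes were higher in Slc5a1 than proximal ones by 3.03 (SE 0.30), 8.15-fold, in 10 of 10 libraries (edgeR adjusted p = 9.36e-07). The other 5 members were lower there by 4.67 to 5.47 on the log2 scale (changes of -4.67 to -5.47), in 10 of 10 libraries, so 6 of 6 differed, beside 63% of the 9811 genes tested. At least 1 UMI of Slc5a1 was found in 46.4% of the 707 thick limb-like barcodes of the control (median depth 4039 UMIs), in 7.66% of proximal ones (2600.5 UMIs) and in none of 203 endothelial-like ones (1352 UMIs), which allows up to 1.48%. After each barcode was thinned to 1000 UMIs, which left out 10 thick limb-like and 168 proximal barcodes, the first 2 shares were 12.1% and 1.79%. In its day comparisons in thick limb-like barcodes, Slc5a1 changed by -0.26 to 0.42, with no call (edgeR adjusted p from 0.355 to 0.808). The share of genes called there was 19.8%, 10.8% and 1.57% at days 7, 11 and 14 against the control, 26.1% in day 11 against day 7 and 6.36% in day 14 against day 11.

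**Figure D5:**
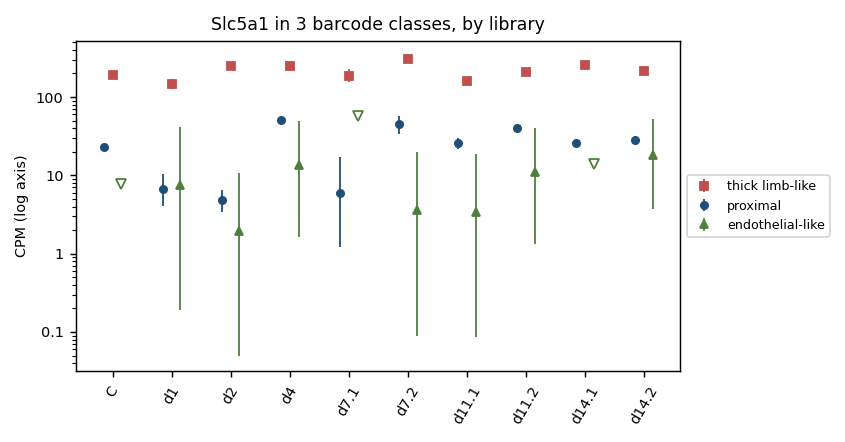
CPM of Slc5a1 in thick limb-like (red squares), proximal (blue circles) and endothelial-like (green triangles) barcodes of each library, on a log axis with exact Poisson 95% intervals. Open triangles mark libraries without a UMI, drawn at the level of 3 counts. The red points stay between 146 and 309 CPM, and the blue points drop on days 1 and 2 and in the first day 7 library.

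Levels of the members outside tubules set the background of free RNA. In endothelial-like barcodes Slc5a2 had 0 to 69.5 CPM and Slc5a12 0 to 61.7 CPM, both highest on day 2, when proximal barcodes had 788 and 765 CPM. Slc5a8, Slc5a10, Slc5a1 and Slc2a2 each stayed at or below 18.1 CPM there. For Slc5a1 the interval in proximal barcodes lay above that in endothelial-like ones in the control, the second day 7 library and the first libraries of days 11 and 14, and overlapped it in the other 6. On days 1 and 2 the values were 6.68 and 4.82 CPM in proximal against 7.46 and 1.93 CPM in endothelial-like barcodes, so at this depth the low proximal levels were not separable from free RNA.

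Related genes were read from a list of 34, of which 30 were tested in all proximal barcodes. On day 7 against the control, 3 were higher and 7 lower, with a list median of -0.50 against 0.0047 over all genes. The 10 called are of 30 tested, beside 23.4% of all genes. Among carriers of monocarboxylates, Slc16a4 was lower by 2.45 (SE 0.37) and Slc16a7 by 2.25 (SE 0.75), at -2.45 and -2.25 (edgeR adjusted p = 0.000608 and 0.0462). Ldhd, the mitochondrial D-lactate dehydrogenase, changed by -1.91 (SE 0.38) and the hexokinase Hk2 by 3.84 (SE 0.75), with edgeR adjusted p = 0.00355 and 0.00309.

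Hk2 rests on few UMIs: 4 in the control, and 5 and 7 on day 7. On days 1, 2 and 4 it had 28, 84 and 210. Slc5a9, another glucose and mannose carrier, was higher on day 7 by 1.72 (SE 0.47, edgeR adjusted p = 0.0205). The scaffold Pdzk1 changed by -0.87 (SE 0.24), the sodium pump subunit Fxyd2 by -0.80 (SE 0.26) and the regulator Hnf4a by -0.91 (SE 0.23), with edgeR adjusted p = 0.0218, 0.0423 and 0.0146. Hnf4a is also 1 of the 18 gate genes.

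On day 14 against the control, 4 list genes were higher and 3 lower, with a median of 0.052 against 0.023 over all genes, where 9.42% of all genes were called. The fructose carrier Slc2a5 was higher by 1.75 (SE 0.42), from 7.85 CPM in the control to 25.9 and 26.9 CPM (edgeR adjusted p = 0.0253). Slc5a9 was higher by 1.69 (SE 0.37) and the SGLT2 accessory protein Pdzk1ip1 (MAP17) by 0.96 (SE 0.25), with edgeR adjusted p = 0.0177 and 0.0334. Slc5a3, the myo-inositol carrier, changed by -1.40 (SE 0.41) and Slc2a3 by -2.07 (SE 0.53), with edgeR adjusted p = 0.0496 and 0.0324.

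Day 11 against the control had 3 list genes higher and 3 lower of 30 tested, a share close to the 21.7% of all genes. Pdzk1ip1 was higher by 0.91 (SE 0.25) and Ldha by 0.91 (SE 0.27), while Slc16a4 changed by -1.46 (SE 0.30), Slc2a9 by -1.18 (SE 0.38) and Hnf4a by -0.93 (SE 0.23), with edgeR adjusted p from 0.00581 to 0.0445. From day 7 to day 11, 7 of the 30 rose and 2 fell, beside 24.2% of all genes called: Ldhd by 1.57 (SE 0.33), Fxyd2 by 1.32 (SE 0.22) and Slc16a9 by 1.21 (SE 0.25) were among those that rose, and Hk2 (-3.74, SE 0.72) and Slc5a9 (-1.26, SE 0.43) fell. From day 11 to day 14, Slc5a9, Slc16a4 and Hnf4a rose by 1.23, 0.92 and 0.69, and none fell, beside 10.4% of all genes called. In Havcr1-bearing barcodes Pdzk1ip1 was lower by 0.50 (SE 0.095, log2 change -0.50) in 9 of 9 libraries and the glucose carrier Slc2a1 was higher by 1.18 (SE 0.28) in 7 of 9, edgeR adjusted p = 0.000399 and 0.00292.

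The genes most like each member over the 10 libraries were found by the root mean square difference of centred log2 CPM, among 4370 genes, as a description. Slc5a2 was closest to the amino acid carrier genes Slc3a2 and Slc7a7 and the creatine carrier Slc6a8 (0.25, 0.27 and 0.29, against a median of 0.75 over all genes). Slc5a12 was closest to D630023F18Rik, Slc7a7 and Trim56 (0.33, 0.36 and 0.38, median 1.03), and Slc2a2 to Creg1, Rab17 and Rpain (0.21, 0.22 and 0.23, median 0.58).

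Slc5a8 was closest to Akr1c14, Slc7a13 and Bhmt2 (0.40, 0.45 and 0.45, median 1.98), Slc5a10 to Napsa, Aadat and Ugt3a1 (0.41, 0.52 and 0.62, median 1.59), and Slc5a1 to Cpb2, Cml5 and Ace (0.50, 0.56 and 0.58, median 1.27). Slc7a7 is in the convoluted list, and Slc7a13 and Napsa are in the straight list. The part of the libraries' makeup in these likenesses was not tested.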

How the data were processed

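The members and gene lists were chosen with earlier results of these data known. The authors deposited 1 table per library, which holds counts of each gene symbol in each barcode, made from Drop-seq libraries per the labels' protocols, and read as UMI counts, which the labels do not state. Bowtie2 2.2.7 and the build mm10 are named in the submitters' processing notes, and other steps are not given in the sources used here.

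Of 64803 deposited barcodes (173806985 UMIs), 52797 passed limits of 500 UMIs, 500 genes and a mitochondrial share of 50%. The top 5% of Scrublet scores of each library (scanpy 1.11.5) were removed as likely doublets, since the threshold Scrublet set by itself took no more than 0.111% of any library. Library pairs shared at most 4 barcode sequences. Proximal barcodes had at least 5 UMIs from at least 3 of 18 genes, and UMIs of 43 markers of 9 other classes that numbered, times 4, no more than these. The counts with 4 and 5 gate UMIs, just outside and just inside, were 6 and 1 in the control and at most 47 and 42 in any other library.

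UMIs were summed per library and class and tested with edgeR 4.0.16 (R 4.3.3): filterByExpr, TMM, the quasi-likelihood F test and Benjamini-Hochberg adjustment at 0.05 over all genes tested, with 1 term per group (3 residual degrees of freedom) or, within libraries, with library as a block. An SE is the absolute log2 change divided by the square root of F. Distances between genes used log2 CPM with a prior count of 2, and log2 changes used edgeR's default prior count. DESeq2 1.42.0 was an alternative. The tests were also run on counts simulated with the same spread for every gene and library, which does not check the spread between these libraries. Replicates of days 7, 11 and 14 differed beyond sampling noise (chi-square per degree of freedom 7.22, 25.1 and 16.2). Named related genes are at most 2 per subgroup and comparison with the largest change among those called. Some related genes counted in the list are not reported here by name.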

Additional observations from a re-analysis of the deposited data

Results flagged for a closer look

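Within the proximal tubule, the change of a member against the control was tested for a difference between straight-leaning and convoluted-leaning barcodes, as an interaction in an edgeR fit of both classes with library as a block and 2 residual degrees of freedom, a test added after seeing the data. It was called for 5 member comparisons on days 11 and 14. Slc5a2 changed more in straight-leaning barcodes by 0.85 (SE 0.20) on day 11 (adjusted p = 0.00259), beside 2.48% of 12741 genes called. For Slc5a12 the straight-leaning change exceeded the convoluted-leaning change by 1.42 (SE 0.30) on day 11 and 1.01 (SE 0.27) on day 14. The adjusted p of this test were 0.000338 and 0.0132, beside 2.48% and 1.82% of genes. On day 11 its changes were opposite, 0.79 in straight-leaning and -0.62 in convoluted-leaning barcodes, neither called (edgeR adjusted p = 0.115 and 0.0699). Slc5a10 changed less in straight-leaning barcodes, by -1.43 (SE 0.38) on day 11 and -1.25 (SE 0.36) on day 14, with adjusted p = 0.0125 and 0.0314. Straight list UMIs in convoluted-leaning barcodes summed to 491 CPM in the control, 387 and 524 CPM on day 11, and 625 and 605 CPM on day 14. For Slc5a2 on day 7 the fitted difference between the classes was 1.73 (SE 0.32), but this sets 1 straight-leaning library against 1 of the control, has no replicate check in that class and is given as a value only. The straight-leaning levels of Slc5a2 and Slc5a12 are low, and barcodes of that class may hold convoluted list UMIs: these summed to 1315 CPM in the control, 894 CPM in the day 7 library, 907 and 996 CPM on day 11, and 1503 and 1538 CPM on day 14. As unscaled CPM they were thus below the control on days 7 and 11 and above it on day 14. The straight-leaning changes are TMM-scaled. With the TMM factors of that class's own fit, the day 14 sums were near the control and those of days 7 and 11 stayed below it. Without barcodes holding such a UMI, the straight-leaning change of Slc5a2 was 0.082 on day 11 and 0.22 on day 14, and that of Slc5a12 on day 14 was 1.03, none called (adjusted p = 0.929, 0.853 and 0.632). The interaction itself was not run on those barcodes. Thick limb-like barcodes, which should lack both genes, held 41 UMIs of Slc5a2 and 34 of Slc5a12 among 5868904 in the control. On day 11 they held 24 and 31 of Slc5a2, and 8 and 4 of Slc5a12, among 1768047 and 1248405. On day 14 they held 36 and 35 of Slc5a2, and 21 and 21 of Slc5a12, among 1773668 and 1807034. The part of such free RNA in these differences was not tested. The day 7 difference of Slc5a8 did not pass this test (1.53, SE 0.56, adjusted p = 0.191).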

How the results depend on the processing

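The differences between straight-leaning and convoluted-leaning barcodes and between Havcr1-bearing and Havcr1-free barcodes gave 6 and 2 calls with each library left out. The first gave 6 in all alternatives run, and the second gave 2 in all but that with at least 2 Havcr1 UMIs, which gave 3. The comparisons between days moved more, and the cause was not tested.

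Members called on day 7 against the control were 3, and 1 in DESeq2, without a limit on UMIs of other classes, in convoluted-leaning barcodes only and in a fit of only the groups compared. Day 11 against the control went from 0 to 1 without that limit, in convoluted-leaning barcodes, with only the groups compared and with library totals in place of TMM, and to 3 in straight-leaning barcodes. Day 14 against the control went from 2 to 4 without a filter on low counts, to 5 with only the groups compared, and to 1 with a mitochondrial limit of 25% or in convoluted-leaning barcodes. Day 11 against day 7 went from 2 to 1 in DESeq2, with at least 10 proximal UMIs and in a gate on Lrp2 and Cubn. It also went to 1 without the limit on other classes, in convoluted-leaning barcodes and with only the groups compared. Day 14 against day 11 went from 2 to 0 in DESeq2 and in straight-leaning barcodes, and to 1 with DESeq2 size factors in edgeR, at least 10 proximal UMIs, the Lrp2 and Cubn gate or convoluted-leaning barcodes. With single libraries left out, the 5 comparisons in this order gave 2 to 5, 0 to 2, 0 to 3, 0 to 5 and 0 to 2 members.

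Genes called on day 7 against the control were 3460, and 2105 in the Lrp2 and Cubn gate, 5239 without the limit on other classes, 1613 in convoluted-leaning and 2059 in straight-leaning barcodes, 1689 with only the groups compared, and 2931 to 3121 with single libraries left out. Day 11 against the control gave 3209, and 2118 in the Lrp2 and Cubn gate, 1740 in convoluted-leaning barcodes and 1252 to 4234 with libraries left out. Day 14 against the control gave 1394, and 843 in DESeq2, 2099 without the filter, 751 in convoluted-leaning and 2168 in straight-leaning barcodes, 3311 with only the groups compared, and 410 to 2220 with libraries left out. Day 11 against day 7 gave 3586, and 2043 in the Lrp2 and Cubn gate, 5918 without the limit, 2046 in convoluted-leaning and 1760 in straight-leaning barcodes, and 1901 to 3241 with libraries left out. Day 14 against day 11 gave 1543, and 2357 without the filter, 821 in the Lrp2 and Cubn gate, 807 in convoluted-leaning barcodes and 337 to 2215 with libraries left out.

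Of single members, 27 values turned direction, none of them called in the alternative. On day 7 against the control, Slc5a10 (-0.23) was 0.091 in the Lrp2 and Cubn gate, 0.59 in convoluted-leaning and 0.70 in straight-leaning barcodes, -2.57 to 0.40 with libraries left out and 0.54 with library totals. Slc5a1 (-0.33) was 0.61 in straight-leaning barcodes, -2.82 to 0.23 with libraries left out and 0.44 with library totals, and Slc5a2, Slc5a12 and Slc2a2 were -0.15, -0.20 and -0.53 in convoluted-leaning barcodes. Without the limit on other classes, Slc5a1 was -0.22 on day 11 and -0.40 on day 14 against the control, Slc5a12 0.027 on day 11, and Slc5a2 and Slc2a2 0.14 and 0.25 in day 11 against day 7. In day 11 against day 7, Slc5a2 and Slc2a2 were 0.27 and 0.81 in convoluted-leaning barcodes, Slc2a2 -0.28 to 0.019 with libraries left out, and Slc5a1, Slc5a10 and Slc5a12 -0.44, -0.26 and 0.35 in straight-leaning barcodes. Slc5a12 on day 11 against the control was 0.79 in straight-leaning barcodes, and in day 14 against day 11 Slc5a8 was -0.079 in convoluted-leaning ones and Slc5a1 -0.56 to 0.049 with libraries left out. Slc5a10 in Havcr1-bearing barcodes was -0.078 without the filter and -0.11 to 0.18 with libraries left out.

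Replicate numbers did not pair the libraries (correlations of deviations 0.026, -0.052 and -0.020). A replicate block left 1 member called in day 11 against day 7 and 1 in day 14 against day 11. Library totals in place of TMM moved the median log2 change of all genes on day 7 against the control from 0.0047 to 0.79, and the turns of Slc5a10 and Slc5a1 under it are no larger than that shift. Alternatives within convoluted-leaning or straight-leaning barcodes, the fit with library totals and the fit without mitochondrial genes were chosen after seeing the data. The first day 7 library, with 208 proximal barcodes, limits every value that rests on it.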
